A study of Mus musculus with 6 samples.

Results

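The proteasome genes of mouse CD8+ T cells were followed in RNA sequencing libraries from splenic cells of C57BL6/J mice that were activated with anti-CD3/anti-CD28 beads and then cultured with interleukin-2 (100 units/ml) until day 7. Every culture received the same activation and interleukin-2, and it differed only in whether water (vehicle) or 0.25 mM aminoxyacetic acid (AOA), which inhibits enzymes that use vitamin B6 in its active form (PLP) as cofactor, was present from activation onwards. Each group had 3 libraries, and mice 1, 2 and 3 each gave a culture to both groups, whose libraries carry the number of the mouse. The genes were taken by symbol, as every row named Psm followed by a letter from a to g and a number, which gave 48 of the 11922 genes in the count table. All 48 passed the low-count filter, among 11759 genes that did.

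The proteasome degrades proteins marked with ubiquitin. Its barrel, the 20S core particle, is built of outer rings of alpha subunits (Psma genes) and inner rings of beta subunits (Psmb genes), of which the products of Psmb5, Psmb6 and Psmb7 cut the substrate. In immune cells and under interferon these catalytic subunits are replaced by Psmb8, Psmb9 and Psmb10, and the resulting immunoproteasome produces many of the peptides shown on MHC class I. The 19S regulatory particle (Psmc ATPases and Psmd non-ATPases) recognises and unfolds substrates, the Psme genes encode activators that open the barrel without it, and the Psmg genes encode chaperones that assemble it.

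The groups were 7 alpha ring genes, 7 constitutive beta genes, 3 immunosubunits, 6 ATPases and 11 non-ATPases of the 19S particle, 3 chaperones of 19S assembly (Psmd5, Psmd9, Psmd10), 5 activator genes, Psmf1, and 4 chaperones of 20S assembly. The remaining match, Psmc3ip, encodes a recombination factor named for binding a proteasome ATPase and is no subunit. Library totals lay between 12881962 and 21997078 counts, and the lowest count of any proteasome gene in any library was 23 (Psmc3ip). Of 8 CD8 T cell markers 7 had a row, with a summed level of 4207 to 5224 CPM (counts scaled to library size) in vehicle and 5133 to 6066 CPM in AOA libraries. In edgeR's test Cd8a and Cd8b1 were higher with AOA (log2 fold changes 1.03 and 0.64, adjusted p = 0.00128 and 0.0148). Cd2 was lower (-0.61, adjusted p = 0.0112). The rest of the 7 lay between -0.31 and -0.06, none with an adjusted p under 0.05. Markers of other cells had lower sums than these, and several moved with the groups. The 4 CD4 T cell markers summed to 158 to 210 CPM with vehicle and 33.0 to 54.3 CPM with AOA, the 4 NK cell markers with a row to 264 to 391 and 155 to 229 CPM, and the 3 myeloid markers with a row (of 8) to 40.8 to 54.2 and 0.873 to 3.33 CPM, nearly all of it Itgam with vehicle. Of the NK cell markers Eomes made up most of the AOA sum, at a log2 fold change of 0.04. Klrk1 and Klrb1c were at -2.62 (adjusted p = 0.000122) and -3.02 (adjusted p = 0.00310). CD8 T cells also express Eomes, so a marker listed for other cells need not come from them. The 5 B cell markers with a row summed to 13.9 to 18.4 and 23.1 to 30.9 CPM, and none of 5 erythroid markers had a row. The part of these markers in the proteasome values was not tested. In bulk RNA, fewer cells of a type and less RNA per cell cannot be told apart.

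Promoter windows from RefSeq (GRCm38.p6, 250 bases before to 50 bases after a start site) matched 41 of the 48 genes. They were searched on both strands for CCAAT, the box bound by NF-Y, for TGACNNNGC, a core of the antioxidant response element through which Nfe2l1 acts on proteasome genes, for TTCNNNGAA, the gamma-activated site of STAT factors, and for an interferon response motif made of 2 copies of GAAA separated by 2 free bases. The 120 bases before the start are printed for the constitutive catalytic gene Psmb5, the alpha ring gene Psma2 and the 3 immunosubunits, because these groups differed in how far they rose. Capitals mark the match, which is TGACNNNGC in Psmb5, CCAAT in Psma2, TTCNNNGAA in Psmb8 and CCAAT on the opposite strand in Psmb9, and the Psmb10 window held none of the motifs. No marked match overlapped another motif.
Psmb5 (chr14:54617996-54618115, minus strand): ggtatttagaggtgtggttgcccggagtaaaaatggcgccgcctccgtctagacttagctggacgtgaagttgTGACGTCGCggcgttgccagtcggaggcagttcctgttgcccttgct
Psma2 (chr13:14613122-14613241, plus strand): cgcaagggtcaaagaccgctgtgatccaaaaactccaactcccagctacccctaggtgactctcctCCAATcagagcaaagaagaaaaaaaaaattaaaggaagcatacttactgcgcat
Psmb8 (chr17:34198075-34198194, plus strand): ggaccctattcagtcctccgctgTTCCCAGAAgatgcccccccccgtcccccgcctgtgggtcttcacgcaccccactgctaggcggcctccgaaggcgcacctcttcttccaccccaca
Psmb9 (chr17:34187331-34187450, minus strand): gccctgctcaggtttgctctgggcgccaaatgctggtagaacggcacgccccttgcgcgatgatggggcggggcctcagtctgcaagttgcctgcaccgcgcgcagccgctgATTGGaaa
Psmb10 (chr8:105938393-105938512, minus strand): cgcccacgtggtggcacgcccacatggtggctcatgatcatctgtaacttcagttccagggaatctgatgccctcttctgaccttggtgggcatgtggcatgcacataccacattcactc

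CCAAT was found in 5 of 7 alpha ring promoters, in 14 of the 41 proteasome genes with a window, and in 43.0% of the 9438 tested genes with one (41.1% of the 27025 genes in the RefSeq promoter set). TGACNNNGC was found in 6 of the 41, against 17.0% of the tested genes. The gamma-activated site was found in 3 of the 41, against 8.30% of the tested genes, and the interferon response motif in 5 of the 41, against 3.86%. The 5 were Psmb3, Psmd4, Psmd9, Psme1 and Psmg4, so that 0 of 3 immunosubunits held the interferon response motif. These matches describe the letters in the windows and nothing more.

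Most proteasome genes were higher with AOA. Of the 48 genes, 39 were called higher and 1 lower at an adjusted p under 0.05, while among all tested genes 26.2% were called higher and 26.8% lower (edgeR's quasi-likelihood test, Benjamini-Hochberg adjustment over all tested genes). The median log2 fold change of the 48 was 0.88, a rise of 1.84-fold, beside a median of -0.02 over all tested genes. In 40 genes every AOA library lay above every vehicle library, as it did in 31.0% of all genes, and in 2 genes every AOA library lay below, against 31.1%. Of the 48, 20 were called higher with a log2 fold change of at least 1, against 12.1% of all tested genes. Together the 48 genes took 0.462%, 0.506% and 0.493% of the counts of vehicle libraries 1, 2 and 3 and 0.903%, 0.744% and 0.744% of those of AOA libraries 1, 2 and 3. AOA library 1 stood highest and the groups did not overlap.

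**Figure D1:**
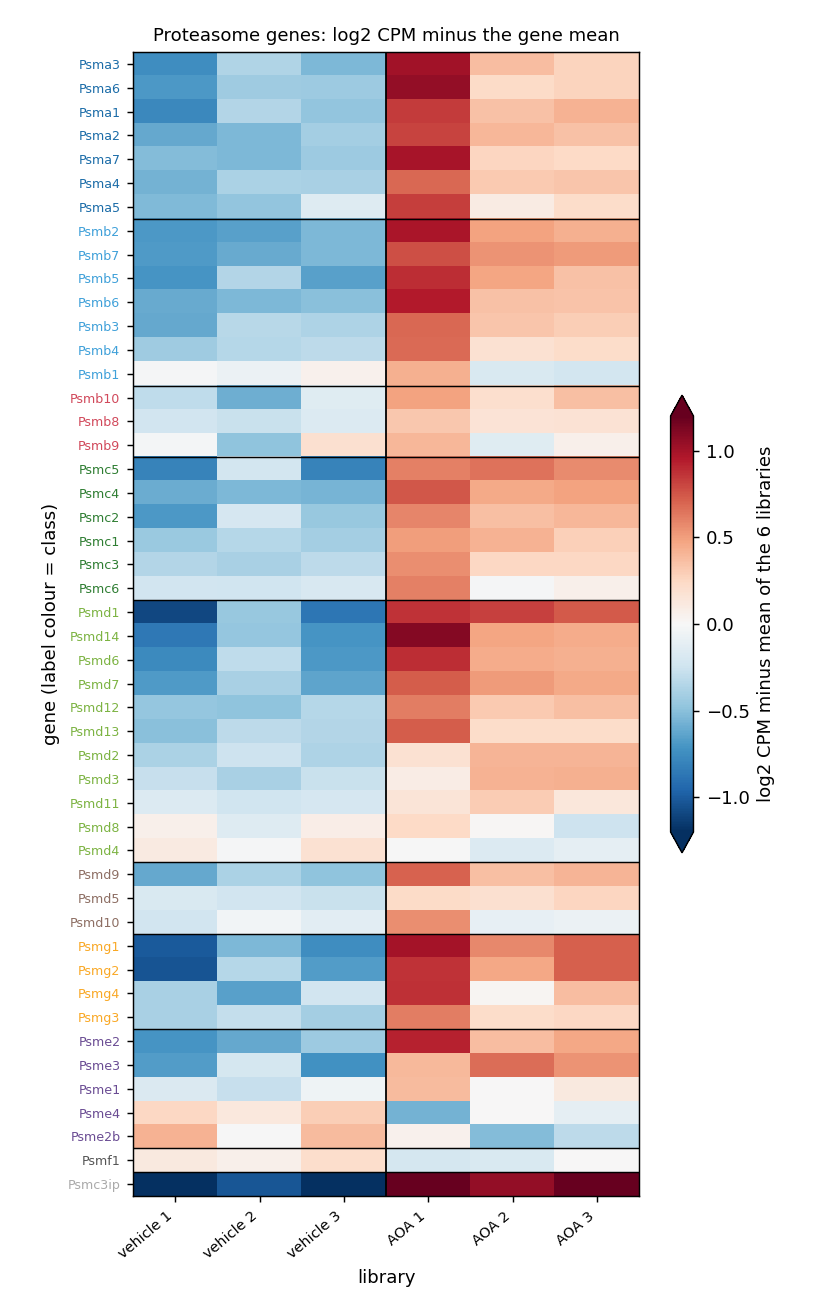
Heat map of the 48 genes (rows, ordered by class and by change) in the 6 libraries (columns), coloured by log2 CPM minus the mean of the gene over all libraries, with colours capped where the bar ends in arrows. Most rows turn from blue in vehicle to red in AOA libraries, AOA library 1 is reddest for all 14 constitutive core genes, and 6 rows (Psmb1, Psmb9, Psmd4, Psmd8, Psmd10 and Psme2b) overlap between the groups.

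The alpha ring, whose subunits form the gate of the barrel, rose as a whole. All 7 genes were called higher, with log2 fold changes between 0.80 for Psma5 and 1.13 for Psma3 and a median of 1.05. Psma3 was at 40.6, 53.0 and 46.8 CPM in vehicle libraries and at 137, 88.3 and 81.7 CPM in AOA libraries (standard error 0.21, adjusted p = 0.00185). The groups did not overlap and AOA library 1 was the highest. Psma6 went from 90.5, 108 and 108 CPM to 302, 170 and 175 CPM (1.08 on the log2 scale, standard error 0.23, adjusted p = 0.00340). Psma5 and Psma4 had the smallest changes of the ring. Psma5 was at 46.1, 47.9 and 59.5 CPM with vehicle and 118, 71.2 and 77.4 CPM with AOA (adjusted p = 0.00987), and Psma4 at 102, 116 and 114 CPM and at 243, 187 and 189 CPM (log2 fold change 0.90, adjusted p = 0.00104). Neither gene overlapped between the groups.

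Of the 7 constitutive beta genes 6 were called higher, including the 3 catalytic ones. Psmb5 (Entrez gene 19173, chromosome 14 from 54614120 to 54617995 in GRCm38), which carries the chymotrypsin-like activity, was at 31.2, 39.9 and 32.5 CPM with vehicle and at 94.1, 71.0 and 65.2 CPM with AOA. That rise was 1.15 on the log2 scale (standard error 0.18, adjusted p = 0.000661), with every AOA library above every vehicle library. Psmb6 (Entrez gene 19175, chromosome 11 from 70525324 to 70527858), the caspase-like subunit, went from 63.1, 66.3 and 68.1 CPM to 186, 122 and 122 CPM (1.12 on the log2 scale, standard error 0.18, adjusted p = 0.000900). The 3 vehicle libraries lay close together and AOA library 1 stood above the other AOA libraries. Psmb7 (Entrez gene 19177, chromosome 2 from 38588046 to 38643952), the trypsin-like subunit, went from 65.3, 69.0 and 72.3 CPM to 180, 153 and 149 CPM (1.22 on the log2 scale, standard error 0.13, adjusted p = 0.000112). Psmb2 had the largest change of the core, 1.28 on the log2 scale (adjusted p = 0.000351), and Psmb4 the smallest among the genes called, 0.74 (adjusted p = 0.00415).

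Psmb1, a non-catalytic subunit of the same ring, did not move with its neighbours. It was at 347, 334 and 364 CPM in vehicle libraries and at 472, 309 and 301 CPM in AOA libraries, so that AOA library 1 lay above all vehicle libraries and AOA libraries 2 and 3 lay below them. On the log2 scale the difference was 0.05 (standard error 0.19, adjusted p = 0.845), and without AOA replicate 1 it was -0.19 (adjusted p = 0.151).

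**Figure D2:**
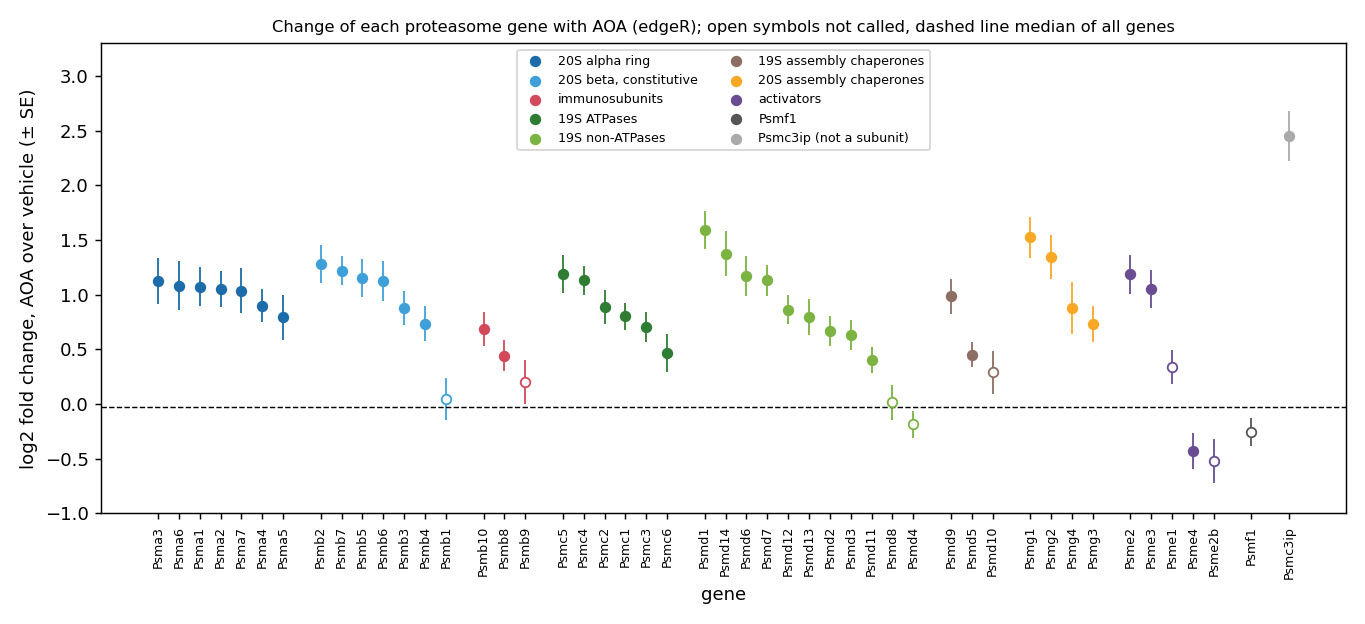
Log2 fold change of AOA over vehicle (vertical axis, with standard error) for each of the 48 genes (horizontal axis), coloured by class, with filled symbols for genes called and open symbols for genes not called. The constitutive core and 20S assembly chaperones lie mostly near or above 1, the immunosubunits between 0.20 and 0.69, and Psmc3ip at 2.46, against a median of all genes (dashed line) at -0.02.

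The immunosubunits had smaller log2 fold changes than the subunits they replace, and 2 of the 3 were called higher. Psmb8 (Entrez gene 16913, chromosome 17 from 34198195 to 34201454), the immune counterpart of Psmb5, was at 597, 581 and 621 CPM with vehicle and at 873, 784 and 786 CPM with AOA. The groups did not overlap, and the rise was 0.44 on the log2 scale (standard error 0.14, adjusted p = 0.0263). When the mouse number entered the model as a replicate block, the size was 0.44 again and the call was lost (adjusted p = 0.0510), as it was without vehicle replicate 1, vehicle replicate 3, AOA replicate 2 or AOA replicate 3 (adjusted p 0.0735, 0.0651, 0.0602 and 0.0691). Psmb10 (Entrez gene 19171, chromosome 8 from 105935728 to 105938392), the counterpart of Psmb7, went from 98.7, 81.2 and 111 CPM to 170, 140 and 157 CPM (0.69 on the log2 scale, standard error 0.15, adjusted p = 0.00468). Vehicle library 2 was its lowest and AOA library 1 its highest. Psmb9 (Entrez gene 16912, chromosome 17 from 34182030 to 34187330), the counterpart of Psmb6, was at 175, 127 and 203 CPM and at 235, 161 and 186 CPM. These ranges overlapped, and the difference of 0.20 on the log2 scale (standard error 0.20, adjusted p = 0.424) did not pass the test. It ran from 0.046 without AOA replicate 1 to 0.39 without vehicle replicate 3, and was 0.072 without vehicle replicate 2 and 0.33 without AOA replicate 2, none of them called.

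The balance within each pair can be read from a single library, where library scaling cancels. Per length, Psmb8 was at 13.6, 10.3 and 13.6 times the level of Psmb5 in vehicle libraries and at 6.61, 7.85 and 8.58 times in AOA libraries. The log2 ratio of counts fell by 0.70 ± 0.32 (SD of the differences within n = 3 mice). Psmb9 was at 3.56, 2.47 and 3.84 times the level of Psmb6 with vehicle and at 1.62, 1.69 and 1.96 times with AOA, and the log2 ratio fell by 0.88 ± 0.31 (SD, n = 3 mice). Psmb10 was at 1.15, 0.898 and 1.17 times the level of Psmb7 with vehicle and at 0.723, 0.699 and 0.804 times with AOA, and the log2 ratio fell by 0.52 ± 0.16 (SD, n = 3 mice). In every pair the ratio was lower with AOA in 3 of 3 mice and the groups did not overlap. The exact two-sided permutation test gave p = 0.1 for each ratio, the smallest that 3 against 3 libraries allow, and 0.1 after adjustment over the 3 pairs, so that none of the ratios can pass 0.05. Of the summed RPKM of the 6 catalytic genes (CPM divided by the gene length in kilobases), the immunosubunits made up 82.7%, 79.4% and 82.7% in vehicle libraries and 70.6%, 72.7% and 74.2% in AOA libraries.

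**Figure D3:**
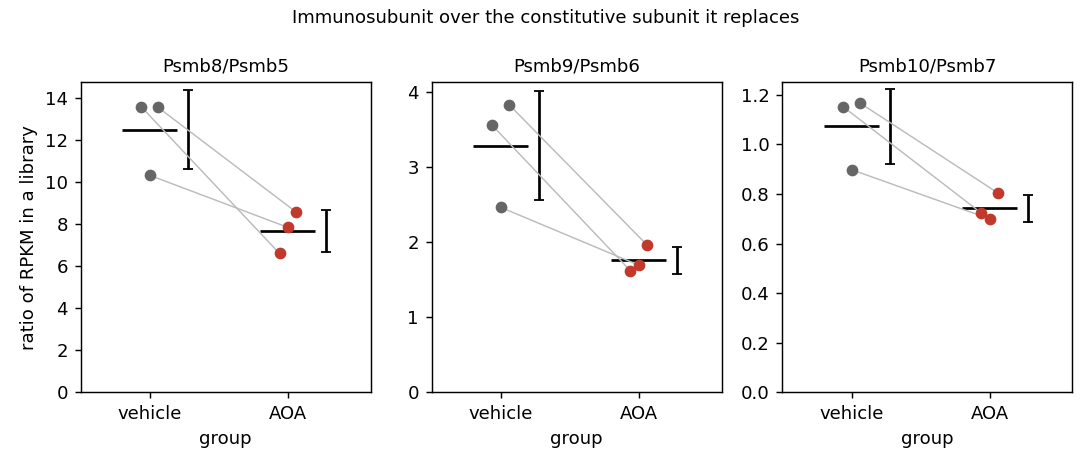
Ratio of RPKM of each immunosubunit to the constitutive subunit it replaces (vertical axes, starting at 0) in each vehicle and AOA library, with lines joining cultures of the same mouse, a bar at the group mean and an error bar of 1 SD (n = 3). All 3 ratios are lower with AOA in every mouse, for example 13.6 against 6.61 for Psmb8/Psmb5 in mouse 1.

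Levels per length placed Psmb8 highest of the 48 in both groups, at 490 ± 16.7 RPKM (SD, n = 3) with vehicle and 666 ± 41.7 RPKM (SD, n = 3) with AOA. Next with vehicle were Psmb1 at 336 ± 14.5 and the activator gene Psme1 at 312 ± 24.2 RPKM (SD, n = 3), which differed by less than their summed spread. Among the 14 constitutive core genes the highest level was 17.2 times the lowest with vehicle (Psmb1 and Psma3) and 8.16 times with AOA. Without Psmb1 and Psma3 the other 12 spanned 3.65-fold and 4.11-fold. The length of a gene in the table, 2398 bases for Psma3, need not be the length of the transcript made in these cells, which limits comparisons between genes. The 4 assembly chaperones of the 20S particle were present at 9.88 to 20.8 RPKM with vehicle, below the median of 85.2 RPKM of the constitutive core.

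**Figure D4:**
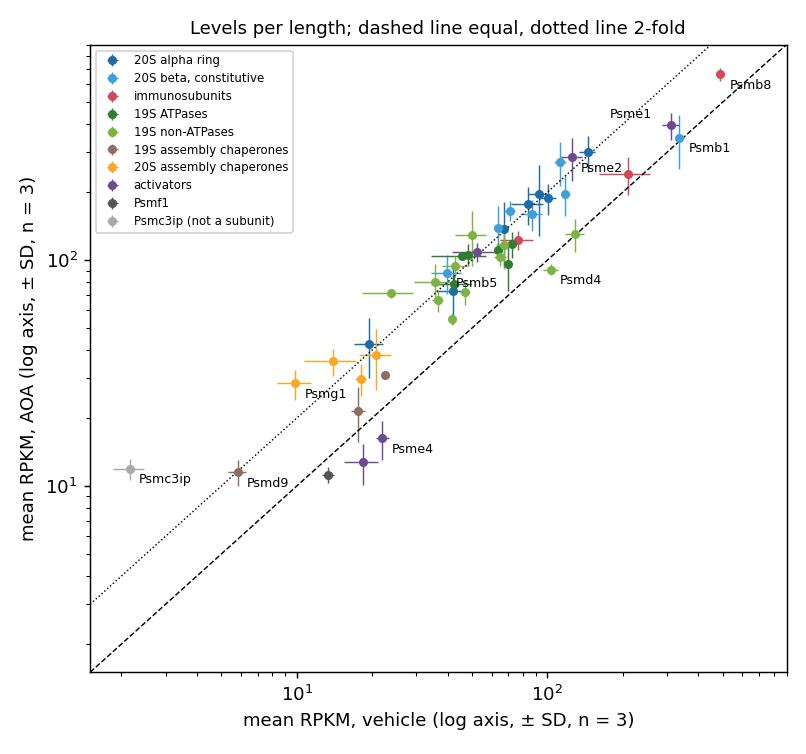
Mean RPKM with AOA (vertical log axis) against mean RPKM with vehicle (horizontal log axis) for the 48 genes, with SD bars over 3 libraries, a dashed line of equal levels and a dotted line at a 2-fold rise. Psmb8 is highest in both groups, most core and 19S genes lie near the dotted line, and Psmb1 and Psmd8 lie on or near the dashed line.

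In the 19S particle, 15 of 17 genes were called higher and 0 lower, and the median over the 17 was 0.81 on the log2 scale. All 6 ATPases, the ring of motors that unfold substrates, were called. Psmc5 led them, at 49.8, 74.9 and 49.8 CPM with vehicle and 133, 137 and 129 CPM with AOA (log2 fold change 1.19, standard error 0.18, adjusted p = 0.000562), and its AOA libraries lay close together while vehicle library 2 was its highest vehicle value. Psmc4 had close vehicle values, 68.1, 70.6 and 69.6 CPM, and rose to 172, 141 and 144 CPM (log2 fold change 1.13, adjusted p = 0.000159). Psmc3 rose by 0.71 on the log2 scale (adjusted p = 0.00230). Psmc6 was at the edge of the threshold, with 109, 108 and 111 CPM in vehicle and 193, 126 and 133 CPM in AOA libraries (0.46, standard error 0.17, adjusted p = 0.0480). Its call was lost under limma (adjusted p = 0.0556), with a filter of at least 10 CPM in 3 libraries (adjusted p = 0.0626), and without vehicle replicate 1, 2 or 3 or AOA replicate 3 (adjusted p 0.102, 0.0544, 0.0854 and 0.0530). Without AOA replicate 1 the rise was 0.25 (adjusted p = 0.0601).

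Among the 11 non-ATPases 9 were called higher. Psmd1, a scaffold of the particle's base, had the largest change of any subunit gene, from 62.3, 96.6 and 72.6 CPM to 242, 234 and 221 CPM (log2 fold change 1.59, standard error 0.17, adjusted p = 0.000123). Its AOA libraries stood close together and far above vehicle. Psmd14, the deubiquitinase that removes the ubiquitin chain before degradation, went from 67.5, 88.9 and 74.9 CPM to 263, 170 and 167 CPM (1.38, standard error 0.20, adjusted p = 0.000565). Psmd11 had the smallest change among those called, at 74.2, 70.5 and 72.5 CPM with vehicle and 92.9, 103 and 91.6 CPM with AOA (0.40, standard error 0.12, adjusted p = 0.0178), and its call was lost without vehicle replicate 3 (adjusted p = 0.0548) or AOA replicate 2 (adjusted p = 0.0777). The ubiquitin receptor gene Psmd4 was not called, at 141, 129 and 147 CPM with vehicle and 130, 116 and 121 CPM with AOA (-0.19, standard error 0.12, adjusted p = 0.233). Psmd8 was not called either, at 203, 175 and 205 CPM and at 229, 196 and 164 CPM (0.02, standard error 0.16, adjusted p = 0.940). Both overlapped between the groups, unlike the other 15 genes of the particle.

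Genes for assembly factors moved mostly with the subunits. All 4 chaperones of the 20S particle were called higher, with a median log2 fold change of 1.11. Psmg1 went from 8.65, 11.9 and 10.4 CPM to 34.7, 25.9 and 28.6 CPM (1.52, standard error 0.19, adjusted p = 0.000207), and its partner in the same heterodimer, Psmg2, from 11.4, 18.4 and 14.7 CPM to 42.6, 32.2 and 38.5 CPM (1.35, standard error 0.20, adjusted p = 0.000569). The second pair rose less, Psmg3 by 0.73 (adjusted p = 0.00498) and Psmg4 by 0.88 (adjusted p = 0.0120) on the log2 scale, a difference between the pairs that was not tested. Of the chaperones of the 19S base, Psmd9 and Psmd5 were called higher, with log2 fold changes of 0.99 (adjusted p = 0.000883) and 0.45 (adjusted p = 0.00972). Psmd10, which encodes gankyrin, was at 23.9, 27.3 and 25.7 CPM with vehicle and 41.4, 26.1 and 26.7 CPM with AOA. Only AOA library 1 stood apart, and the gene was not called (0.29, standard error 0.20, adjusted p = 0.238). Without AOA replicate 1 the difference was 0.043, and without AOA replicate 2 it was 0.41, neither of them called.

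The activators divided. Psme1 and Psme2 encode the alpha and beta subunits of PA28, the cap associated with the immunoproteasome, and lie close to each other on chromosome 14 (55578494 to 55581527 and 55587440 to 55591101 in GRCm38). Psme1 was at 302, 283 and 330 CPM with vehicle and 446, 343 and 370 CPM with AOA. All AOA libraries were above vehicle, yet the difference of 0.34 on the log2 scale (standard error 0.15, adjusted p = 0.0879) did not pass the test in edgeR and did in DESeq2 (0.35, adjusted p = 0.0486). Psme2 went from 112, 120 and 136 CPM to 348, 236 and 253 CPM (1.19, standard error 0.18, adjusted p = 0.000582). Psme2b, which by its name is a copy of Psme2, had the lowest log2 fold change of the 48 and was not called, at 21.3, 16 and 20.9 CPM and at 16.6, 11.2 and 12.9 CPM (-0.52, standard error 0.20, adjusted p = 0.0555). AOA library 1 overlapped with vehicle. Near-identical genes can share reads, so its level is uncertain. It was called lower when the replicate block of mouse numbers was used (-0.53, adjusted p = 0.0302), with at least 10 CPM in 3 libraries (adjusted p = 0.0443), and with the length trend removed without the block (adjusted p = 0.0145) or with it (adjusted p = 0.0124). It was also called lower without vehicle replicate 2 (adjusted p = 0.0222) or AOA replicate 1 (adjusted p = 0.0258).

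Psme3, which encodes the nuclear activator PA28 gamma, was called higher, at 123, 169 and 119 CPM with vehicle and 257, 311 and 285 CPM with AOA (1.05, standard error 0.17, adjusted p = 0.000921). Here AOA library 1 was the lowest of the AOA libraries. Psme4, which encodes the large activator PA200, was the gene called lower, from 144, 132 and 149 CPM to 81.5, 121 and 112 CPM (-0.43, standard error 0.16, adjusted p = 0.0498). The groups did not overlap, and AOA library 1 was lowest. This call held by a narrow margin and was lost with median-of-ratios scaling (-0.42, adjusted p = 0.0541), with total counts only (adjusted p = 0.0624), with no low-count filter (adjusted p = 0.0667) and with the trend on gene length removed (-0.28, adjusted p = 0.0881). It was also lost without AOA replicate 1 (-0.28, adjusted p = 0.0646), without AOA replicate 3 (adjusted p = 0.0833), and without vehicle replicate 1, 2 or 3 (adjusted p 0.143, 0.0559 and 0.165). Psmf1, which encodes the proteasome-binding protein PI31, was not called, at 47.2, 45.3 and 50.3 CPM and at 37.6, 38.4 and 43.7 CPM (-0.25, standard error 0.13, adjusted p = 0.125), although every AOA library lay below every vehicle library.

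Psmc3ip, the match that is no subunit, had the largest change of all, from 1.83, 2.41 and 2.06 CPM to 12.4, 10.2 and 12.2 CPM (2.46, standard error 0.23, adjusted p = 5.21e-05). It was also the least abundant of the 48 with vehicle, at 2.16 ± 0.30 RPKM (SD, n = 3).

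AOA library 1 held the highest value of the AOA libraries in 40 of the 48 genes and in all 14 of the constitutive core. The median log2 difference of the 48 genes between the cultures of a mouse was 1.26 in mouse 1, 0.70 in mouse 2 and 0.70 in mouse 3. These genes are short. Their lengths in the table had a median of 1287 bases, and 44 of the 48 lay below 2900 bases, the median over all genes tested. AOA library 1 also had higher counts for short genes in general. Between a gene of 1147 bases and a gene of 6325 bases (the 10th and 90th percentiles) its trend differed by 0.47 on the log2 scale, against -0.13 to -0.026 in the other 5 libraries. With such trends removed from every library, the median of the 48 was 0.80, the constitutive core was at 0.98 and the immunosubunits were at 0.38. All 39 genes called higher were again called higher. Without AOA replicate 1 the medians were 0.75, 0.81 and 0.39, and 38 genes were called higher, all but Psmc6.

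**Figure D5:**
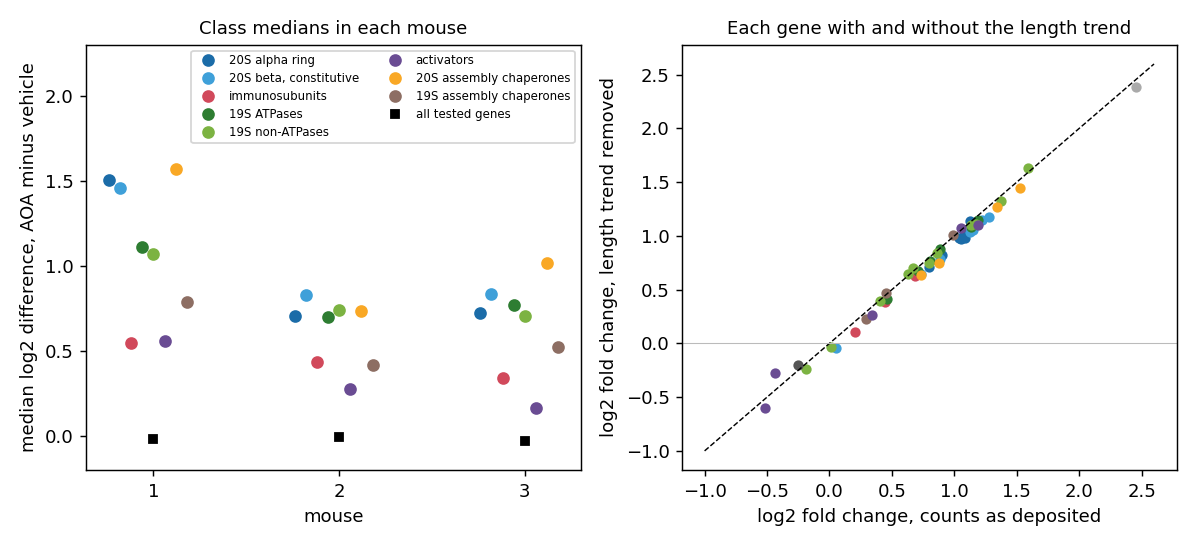
Left, median log2 difference between the AOA and the vehicle culture of each mouse (vertical axis). It is shown for every class of proteasome genes except Psmf1 and Psmc3ip, and for all tested genes. Right, log2 fold change of each of the 48 genes with a trend on gene length removed (vertical axis) against that from the counts as deposited (horizontal axis), where the points stay close to the line of equality. Each class median shown is highest in mouse 1.

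Other genes of the ubiquitin and proteasome pathway were taken from lists. The shares of all tested genes called higher and lower, 26.2% and 26.8%, are the background for each list. Of 13 genes for further proteasome factors, 6 were called higher and 1 lower. Usp14 and Uchl5, the deubiquitinases that dock on the 19S particle, led them, with Usp14 at 43.0, 57.2 and 47.6 CPM with vehicle and 116, 118 and 117 CPM with AOA (1.25, adjusted p = 0.000134) and Uchl5 at a log2 fold change of 1.11 (adjusted p = 0.000188). Txnl1, a thioredoxin-like protein bound to the 19S particle, rose by 0.86 (adjusted p = 0.00135). Midn, whose product midnolin carries substrates to the proteasome without ubiquitin, fell from 129, 109 and 124 CPM to 58.8, 75.5 and 80.5 CPM (-0.75, adjusted p = 0.00303). Pomp, the maturation factor of the core, and Sem1, the smallest 19S subunit, were chosen after their values were seen and rose by 0.74 (adjusted p = 0.00574) and 0.64 (adjusted p = 0.00598). The 6 genes of the list that were not called included Adrm1, also named after its value was seen (0.25, adjusted p = 0.142).

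Of 7 genes for transcription of proteasome subunits and the processing of their activator, 2 were called higher and 0 lower, beside 26.2% and 26.8% of all tested genes, so that the share called higher was near the background. The genes called were Nfyc and Nfya, subunits of NF-Y, with log2 fold changes of 0.93 (adjusted p = 0.00110) and 0.58 (adjusted p = 0.00527). Nfe2l1, named after its value was seen because it encodes the factor that raises proteasome genes when the proteasome is inhibited, was at 80.0, 122 and 85.7 CPM with vehicle and 61.5, 98.6 and 90.6 CPM with AOA. The ranges overlapped and it was not called (-0.20, adjusted p = 0.460). Of 14 genes for ubiquitin, its activation and the delivery of substrates, 5 were called higher and 1 lower (26.2% and 26.8% of all tested genes), and the number called higher ran from 3 without vehicle replicate 1, AOA replicate 2 or AOA replicate 3 to 9 without AOA replicate 1. The 1 called lower was not called without vehicle replicate 3 or AOA replicate 3. Uba6, which encodes an alternative ubiquitin-activating enzyme, rose by 0.80 (adjusted p = 0.00278), and Ubqln1, which encodes a shuttle of ubiquitinated substrates, rose by 0.56 (adjusted p = 0.00711).

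The genes through which interferon raises the immunosubunits were mostly lower. Of 10 such genes 8 were called lower and 0 higher (26.8% and 26.2% of all tested genes), and the median over the 10 was -0.86 on the log2 scale. Ifngr1, a chain of the interferon gamma receptor, was at 1895, 1478 and 2078 CPM with vehicle and 578, 595 and 487 CPM with AOA (-1.72, standard error 0.19, adjusted p = 0.000120). Its kinases Jak1 and Jak2 had log2 fold changes of -1.51 (adjusted p = 0.000324) and -1.26 (adjusted p = 0.000103). Irf1 and Nlrc5, which act on the promoters of immunosubunit or class I genes and were named after their values were seen, were at -1.06 (adjusted p = 0.00276) and -0.74 (adjusted p = 0.00175).

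Of 10 genes of class I peptide loading and presentation, 3 were called higher and 2 lower, shares near the 26.2% and 26.8% of all tested genes. The number called lower was 1 without vehicle replicate 1 or 3 and 4 without vehicle replicate 2. Tap1, which encodes a subunit of the peptide transporter and lies on chromosome 17 with 225 bases between it and Psmb9, was at 725, 473 and 814 CPM with vehicle and 320, 381 and 409 CPM with AOA (-0.86, standard error 0.21, adjusted p = 0.00839). Its AOA libraries all lay below vehicle, while those of Psmb9 overlapped with vehicle at a log2 fold change of 0.20. H2-D1, a class I heavy chain, was at -0.51 (adjusted p = 0.0189), a call lost without vehicle replicate 1 (adjusted p = 0.0781) or vehicle replicate 3 (adjusted p = 0.0751). Calr, Pdia3 and Erap1, of the endoplasmic reticulum folding and trimming steps, rose by 0.87 (adjusted p = 0.00139), 0.76 (adjusted p = 0.00400) and 0.67 (adjusted p = 0.00764).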

How the data were processed

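CD8+ T cell RNA from 3 mice, each with a vehicle and an AOA culture, was sequenced from stranded mRNA libraries as paired 75 base reads. The authors aligned reads with STAR at default settings, counted uniquely mapped reads and deposited raw counts per gene with a gene length. The submitters' processing notes name featureCounts, DESeq2 and mm10, with the annotation, strand setting and any gene filter not given in the sources used here. Whether counting used strand decides how overlapping genes share reads.

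The tests used edgeR 4.0.16 (R 4.3.3). After filterByExpr (minimum count 10) and TMM scaling, groups were tested by robust quasi-likelihood without the mouse number, with Benjamini-Hochberg adjustment over all tested genes. Standard errors come from the log2 fold change and the F statistic. CPM use TMM library sizes, RPKM divide them by the deposited length, and log2 ratios have a prior count of 2. Alternatives were DESeq2 1.42.0, limma 3.58.1 (voom), other scalings and filters, the mouse as a replicate block, a loess trend (span 0.5) on gene length removed, and each library left out. The steps were tested on simulated data.

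Pairing comes from the labels, which give the mouse donor of each library as 1, 2 or 3 in both groups. Deviations from group means correlated across genes within mice at r of 0.09, 0.19 and 0.19. Replicates differed beyond sampling noise (chi-square per gene 10.2 to 72.3). The value was 10.2 between vehicle libraries 1 and 3 and 10.7 between AOA libraries 2 and 3. In pairs with vehicle library 2 or AOA library 1 it was 55.9 to 72.3. The p-values of the main fit measure the spread between the 3 libraries of a group, each from a different mouse. Differences of mouse, culture and library cannot be told apart in it. Gene positions are from RefSeq on GRCm38.p6, matched by Entrez number.

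The proteasome genes and all lists were chosen with earlier results of these data known. Genes are named by rule: the catalytic, activator and Psmf1 genes, the 2 largest and 2 smallest changes of each other class, and up to 3 called genes per direction of each other list, beside genes named for their place in a range and genes said to be chosen after their values were seen. Some genes of the other lists that the rule would name are not reported here.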

Additional observations from a re-analysis of the deposited data

How the results depend on the processing

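In 39 genes called higher and 1 called lower, no alternative turned the direction of a call. The number called higher stayed between 38 and 40 under other tools, scalings and filters, the replicate block and the removal of the length trend, and between 36 and 38 with each library left out. The constitutive core kept 13 genes called higher in every alternative. The number called lower (1, an activator) was 0 with median-of-ratios size factors, with total counts only and with no low-count filter, 2 with at least 10 CPM in 3 libraries and with the mouse as a replicate block, and 0 to 1 when single libraries were dropped, for the 48 genes and for the activators alike. With the replicate block 1 immunosubunit was called higher, not 2, since Psmb8 was lost, and with each library left out 1 to 2. The block changed no other call among the 48 beyond Psmb8 and Psme2b. Class I presentation genes called lower numbered 4 with at least 10 CPM in 3 libraries and 1 to 4 with each library left out. Genes of ubiquitin and delivery called higher numbered 8 with the length trend removed together with the replicate block and 3 to 9 with each library left out, and those called lower 0 to 1. Uncalled genes near 0 changed sign. The log2 fold change of Psmb1 was -0.044 with the length trend removed, -0.050 with this and the replicate block, and -0.19 to 0.17 with single libraries left out. That of Psmd8 was -0.014 with at least 10 CPM in 3 libraries, -0.033 with the length trend removed, -0.033 with this and the replicate block, and -0.11 to 0.14 with single libraries left out. That of Nfe2l1 was -0.33 to 0.048 with single libraries left out. The fall of the 3 immunosubunit ratios kept its direction, from -0.83 to -0.59 for Psmb8/Psmb5, -1.08 to -0.76 for Psmb9/Psmb6 and -0.65 to -0.46 for Psmb10/Psmb7 with each library left out, and the sign-flip test within mice cannot go below 0.25. The cause of each change was not tested.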
